A study of Homo sapiens with 9 samples.

Results

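Glycolysis is the cytosolic pathway that splits glucose into pyruvate. Several of its steps can be run by more than 1 enzyme, each from its own gene, and such alternative enzymes are called isozymes. Hexokinase puts the first phosphate on glucose, phosphofructokinase adds the second phosphate at the committed and most regulated step, aldolase cuts the six-carbon sugar into a pair of three-carbon sugars, and enolase makes phosphoenolpyruvate near the end of the pathway. The isozymes of a step carry out the same reaction but differ in where they are made: ALDOC and ENO2 are best known from brain and neurons, ENO3 and PFKM from muscle, PFKL from liver and PFKP from platelets, while HK1, ALDOA and ENO1 are the widely used forms. HK2 is the inducible, insulin-responsive hexokinase that many tumours make in quantity. Tumour cell lines often make several isozymes of a step at once.

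The genes described here are 10 isozymes of these 4 steps, matched by Ensembl gene identifier to their symbols in gene tables that listed 58395 genes: HK1 and HK2 for hexokinase, PFKP, PFKL and PFKM for phosphofructokinase, ALDOA and ALDOC for aldolase, and ENO1, ENO2 and ENO3 for enolase. All 10 were found. They were measured in 9 RNA sequencing libraries of HCT116, a long-established line of human colon carcinoma cells. Every library came from cells that stably carried a short hairpin RNA against STBD1 (shSTBD1), a glycogen-binding protein that delivers glycogen to autophagosomes, and a lentiviral construct, in 3 groups of 3 biological replicates: the empty vector plvx neo, STBD1 WT, and STBD1 W203C, which the study used as a mutant impaired in binding the autophagy protein family ATG8. The knockdown is therefore shared by all groups, plvx neo included, cells without the hairpin are not compared, and each construct is represented by drug-selected cells, with nothing said of whether replicates came from separate infections. Setting STBD1 WT against plvx neo asks what STBD1 expressed from a construct does. Setting STBD1 W203C against STBD1 WT asks what the mutation changes, together with any difference in construct level. A comparison of STBD1 W203C with plvx neo was added here to complete the set.

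The names of the deposited tables and the sample labels name the STBD1 WT and STBD1 W203C libraries in opposite ways. The labels were followed throughout, so every direction between the constructs holds for the libraries as labelled, and exchanging the labels would turn each difference between STBD1 W203C and STBD1 WT around and swap the comparisons of the constructs with plvx neo. STBD1 itself does not tell which is right, because both constructs raise it: STBD1 together with FAM47E-STBD1, a readthrough gene that shares its exons, summed to 4.85 ± 0.751 TPM with plvx neo, 54.6 ± 2.39 with STBD1 WT and 46.1 ± 2.30 with STBD1 W203C (SD, n = 3). With edgeR, STBD1 (log2 fold change -0.28, adjusted p = 0.00945) and FAM47E-STBD1 (-0.27, adjusted p = 0.00113) were called lower in STBD1 W203C than in STBD1 WT. Mutation and construct level thus differ together in that comparison. TPM, the abundance unit of RSEM, is a level per transcript length scaled to the same total in each library, so that genes can be compared with each other, whereas counts are compared only between libraries. Total expected counts were 19.2 to 20.5 M (M, mega) with plvx neo, 16.9 to 23.3 M with STBD1 WT and 17.3 to 18.7 M with STBD1 W203C, and every isozyme was covered by 77 or more counts in each library. Of 6 colon epithelial markers, 5 were at 1 TPM or more in all libraries, with summed levels of 3792 to 3889 TPM with plvx neo, 3388 to 3519.6 with STBD1 WT and 3168 to 3429 with STBD1 W203C, and VIL1 was below 1 TPM throughout. Leukocyte and endothelial markers were below 1 TPM in all 9 libraries, and of the fibroblast markers COL1A1 alone was above that, so that the fibroblast sum was 13.8 to 16.4 TPM with plvx neo, 16.4 to 21.6 with STBD1 WT and 12.6 to 18.2 with STBD1 W203C. Markers of the tissues for which some isozymes are named were low. Muscle markers summed to between 0.840 and 2.78 TPM per library. Neural markers (SYP, RBFOX3 and GFAP, the last of astrocytes) summed to between 1.47 and 2.63 TPM.

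ALDOC and ENO2 carried the widest differences between the groups, and the DNA before a RefSeq transcription start of each is shown for that reason. The RefSeq window of 250 bases before to 50 after a start was searched, on both strands, for the letters ACGTG and GCGTG, the cores that hypoxia-inducible factors recognise in glycolytic genes. The stretch of the ALDOC window that lies outside every annotated transcript of the gene is given first, then the part of the ALDOC window next to the start and the part of the ENO2 window around its match. The shorter stretches lie within the annotated bounds of ALDOC and ENO2, which begin upstream of the RefSeq starts used. All are 5′ to 3′ in the direction of transcription (GRCh38.p14), with the matched letters on either strand in capitals.
ALDOC, chr17:28576949-28577145, minus strand: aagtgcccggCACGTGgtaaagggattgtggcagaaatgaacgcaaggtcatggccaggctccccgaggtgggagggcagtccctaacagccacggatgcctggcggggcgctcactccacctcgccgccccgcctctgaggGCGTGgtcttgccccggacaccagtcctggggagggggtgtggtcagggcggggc
ALDOC, chr17:28576915-28576944, minus strand: aggcCACGCccccggaggagtCACGTagct
ENO2, chr12:6914450-6914479, plus strand: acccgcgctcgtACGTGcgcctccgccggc

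The single ALDOC window held 5 matches, 2 of which overlap in the palindrome CACGTG, with first bases at 240, 239, 108, 45 and 28 bases before the start. The single ENO2 window held 1, at 118 bases before the start, and the single ENO1 window, in a gene that passed the test in no comparison, held 2, at 166 and 72 bases. At least 1 window of every isozyme held a match, among them 3 of 3 for ALDOA, 2 of 2 for HK2, 1 of 1 for PFKL, 2 of 7 for HK1 and 2 of 7 for PFKM. Such letters are common: ACGTG was in 21.4% of all 35116 windows in the RefSeq table, GCGTG in 36.5% and either in 48.4%. These percentages are per window. The share of all genes with a match in at least 1 window was not computed, and a gene with more windows has more room for a match. A match is a run of letters and says nothing about whether a factor binds there.

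The levels of the isozymes spanned a wide range. ENO1 was the most abundant at 2245 TPM over the 9 libraries, followed by ALDOA at 1102, PFKP at 184, PFKM at 117, PFKL at 85.8, ALDOC at 63.5, HK1 at 36.1, ENO2 at 28.9, HK2 at 23.4 and ENO3 at 8.64 TPM. In plvx neo this order was the same and no neighbouring isozymes overlapped between libraries. In STBD1 WT, PFKM, PFKL and ALDOC lay close together: the lowest PFKM library, at 97.0 TPM, was below the highest PFKL library, at 98.8, and the lowest PFKL library, at 88.6, was below the highest ALDOC library, at 93.5. In STBD1 W203C, ENO2 came after HK2 in the order, and the libraries of these neighbours overlapped. The isozymes divided each step unequally: ENO1 made 98.4% of enolase TPM and ALDOA 94.6% of aldolase TPM over the 9 libraries, HK1 and HK2 divided hexokinase at 60.7% and 39.3%, and PFKP, PFKM and PFKL made 47.6%, 30.2% and 22.2% of phosphofructokinase.

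**Figure D1:**
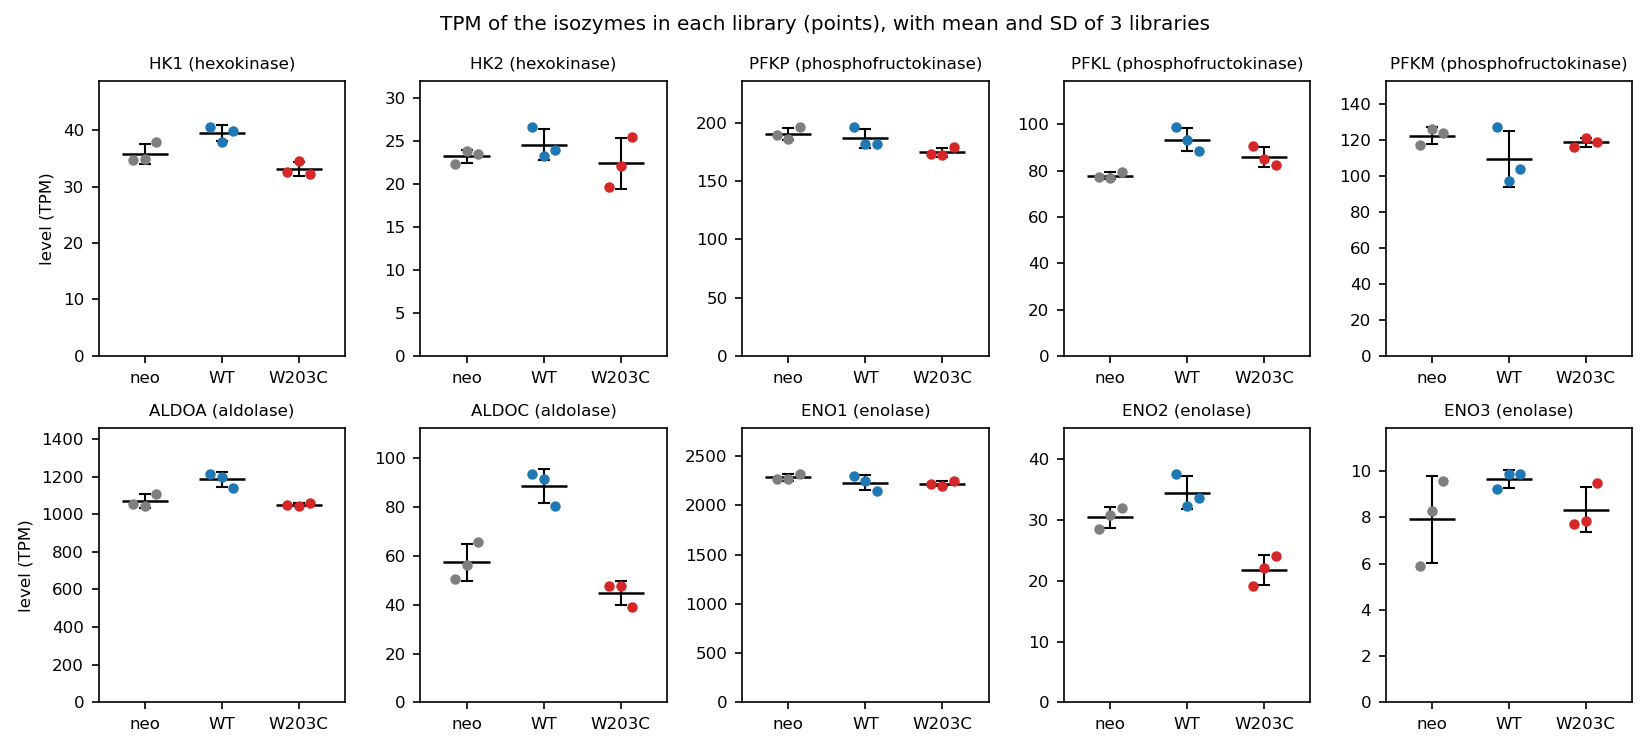
Level of each isozyme (TPM, linear axis from 0) in the 3 libraries of plvx neo (neo), STBD1 WT (WT) and STBD1 W203C (W203C), with the mean (wide line) and SD (error bar). ALDOC and ENO2 were highest in STBD1 WT and lowest in STBD1 W203C without overlap between groups, while ENO1 stayed between 2149 and 2321 TPM.

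Between STBD1 WT and plvx neo, 5 of the 10 isozymes rose and none fell (edgeR quasi-likelihood test on rounded expected counts, Benjamini-Hochberg adjusted p below 0.05 over all genes tested). The 5 were ALDOC, PFKL, ENO2, HK1 and ALDOA, at least 1 for each step. Their size was modest: the fold ran from 1.12 for ALDOA to 1.48 for ALDOC. Of all 15289 genes tested, 27.8% passed, 13.9% higher and 13.9% lower, so a change as such was common in this comparison. After a correction for GC content and length, 3 isozymes were called higher and 2 lower (PFKP and PFKM), beside 1575 genes higher and 3238 lower. The median log2 fold change was 0.17 over the 10 isozymes and 0.0061 over all genes. The TPM of 4 isozymes (PFKL, ALDOA, ALDOC and ENO2) did not overlap between the groups, all higher in STBD1 WT, against 31.3% of all genes in either direction.

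Between STBD1 W203C and STBD1 WT, 6 isozymes fell and none rose, in the same test. They were ALDOC, ENO2, HK1, ALDOA, PFKL and PFKP, and ALDOC and ENO2 fell by more than 1.5-fold. Among all 15052 genes tested, 27.9% passed, 14.5% higher and 13.4% lower. After the correction for GC content and length, 4 isozymes were called lower and none higher, beside 3226 genes higher and 1437 lower. PFKP and PFKL were then no longer called. Limma on log2(TPM + 1) also called 4 isozymes lower, without PFKP and PFKL. The median log2 fold change was -0.20 over the isozymes and -0.0078 over all genes. In TPM, HK1, PFKP, ALDOA, ALDOC and ENO2 were lower without overlap, 5 of 10, against 33.1% of all genes in either direction.

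In STBD1 W203C vs plvx neo, 3 isozymes fell, ENO2, ALDOC and PFKP, and none rose. Changes were rarer here: 5.70% of 15081 genes passed, 3.03% higher and 2.67% lower. The median was -0.082 over the isozymes and -0.0031 over all genes. The TPM of 6 isozymes did not overlap, with PFKL higher and HK1, PFKP, ALDOC, ENO1 and ENO2 lower, against 20.2% of all genes. The 3 comparisons share their libraries, so their directions are not independent of each other, and each group enters 2 of them. On log2(TPM + 1), limma called none of these 3 isozymes, with adjusted p of 0.0578 for ENO2, 0.194 for ALDOC and 0.181 for PFKP.

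**Figure D2:**
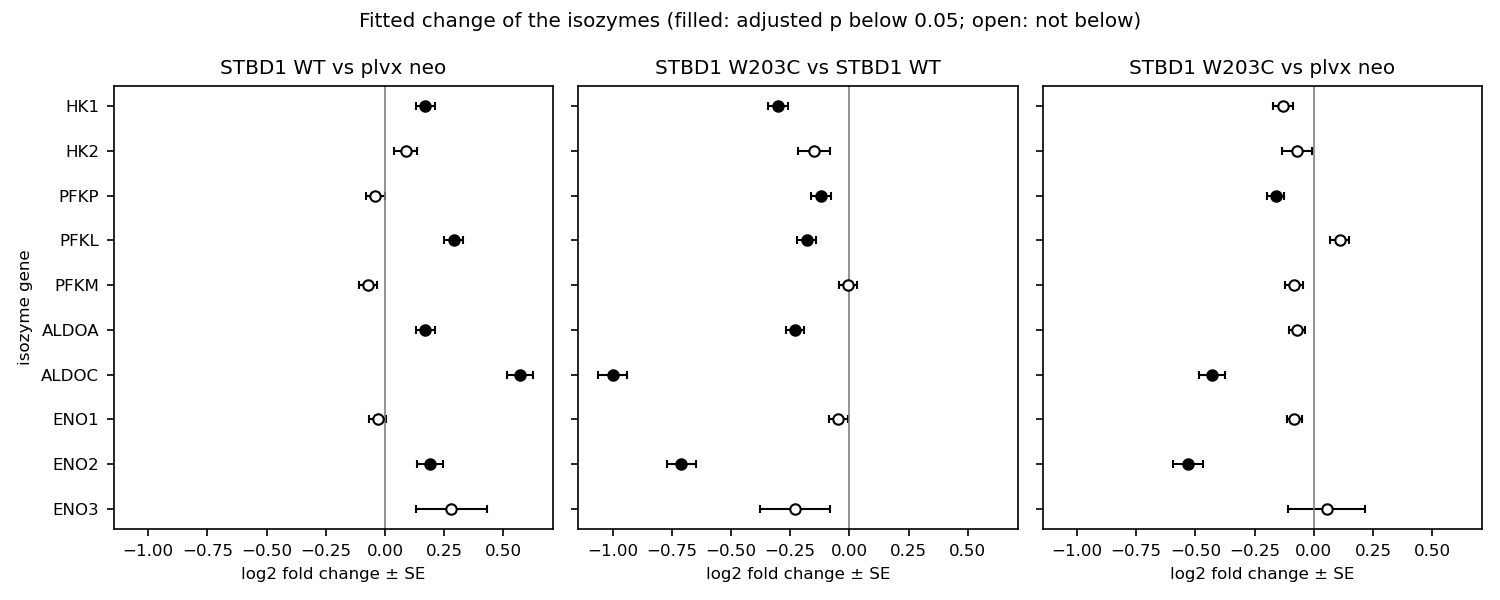
Fitted log2 fold change (edgeR) of each isozyme in the 3 comparisons, with its standard error as the error bar. Filled points had an adjusted p below 0.05. The widest changes were ALDOC at -1.0 and ENO2 at -0.71 in STBD1 W203C vs STBD1 WT.

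HK1 and HK2 are the hexokinases, which trap glucose in the cell and bind the outer mitochondrial membrane. HK1 (ENSG00000156515) lies on chromosome 10 (plus strand, 69269984 to 69401884), in hg38 with GENCODE 44 annotation as for all positions here. Its level was 34.7, 34.8 and 37.8 TPM with plvx neo, 40.5, 37.8 and 39.9 TPM with STBD1 WT, and 32.6, 34.6 and 32.2 TPM with STBD1 W203C. The STBD1 WT libraries were the highest, touching the top plvx neo library, and the STBD1 W203C libraries the lowest. The fitted log2 fold change was 0.17 ± 0.0410 (SE, adjusted p = 0.00332) in STBD1 WT vs plvx neo and -0.30 ± 0.0424 (adjusted p = 1.74e-05) in STBD1 W203C vs STBD1 WT. In STBD1 W203C vs plvx neo it was -0.13 ± 0.0438, which did not pass (adjusted p = 0.0772), although the TPM of those groups did not overlap. The rise in STBD1 WT was not called by limma on log2(TPM + 1), at 0.14 (adjusted p = 0.171).

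HK2 (ENSG00000159399; chromosome 2, 74834127 to 74893359, plus strand) did not pass in any comparison. It was at 22.3, 23.8 and 23.5 TPM with plvx neo, 26.6, 23.2 and 23.9 with STBD1 WT, and 19.6, 22.1 and 25.5 with STBD1 W203C. The STBD1 W203C libraries spread widest, from below both other groups to above every plvx neo library. The log2 fold change was 0.087 ± 0.0476 in STBD1 WT vs plvx neo (adjusted p = 0.193), -0.15 ± 0.0676 in STBD1 W203C vs STBD1 WT (adjusted p = 0.1) and -0.071 ± 0.0621 in STBD1 W203C vs plvx neo (adjusted p = 0.593). Without STBD1 W203C replicate 3 it passed as lower in both comparisons of that group, at -0.26 against STBD1 WT (adjusted p = 0.00106) and -0.18 against plvx neo (adjusted p = 0.0321). With no filter on low counts it also passed against STBD1 WT, at -0.15 (adjusted p = 0.00673). A pseudogene, HK2P1, shares 2.80% of the 100-base windows of the main HK2 transcript.

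The split of hexokinase between these genes overlapped between the groups. HK1 made 60.7% ± 1.16 of their summed TPM with plvx neo, 61.6% ± 1.11 with STBD1 WT and 59.7% ± 3.52 with STBD1 W203C (SD, n = 3). As a part of all enzymes that phosphorylate glucose, the differences were 3.73 percentage points for HK1 and 1.33 for HK2 in STBD1 WT vs plvx neo, in place of 0.973 and -0.973, and -5.92 and -1.78 in STBD1 W203C vs STBD1 WT, in place of -1.92 and 1.92. The sum of HK1 and HK2 was 59.0 ± 2.16 TPM with plvx neo, 64.0 ± 3.02 with STBD1 WT and 55.5 ± 2.92 with STBD1 W203C, with STBD1 W203C below STBD1 WT without overlap (two-sided exact permutation test p = 0.1, the smallest that 3 against 3 libraries allow, and 0.240 adjusted over the 12 sums compared). Of the other glucose-phosphorylating enzymes, ADPGK, which uses ADP in place of ATP, was at 30.4 TPM on average and did not pass in any comparison. HKDC1, a further hexokinase of epithelia, was at 1.71 ± 0.324 TPM with plvx neo, 0.767 ± 0.193 with STBD1 WT and 0.940 ± 0.548 with STBD1 W203C. It was lower than in plvx neo in both, by -1.36 ± 0.206 (adjusted p = 5.58e-05) and -1.17 ± 0.214 (adjusted p = 0.00107) on the log2 scale. HK3 did not exceed 0.620 TPM. With ADPGK and the other enzymes of the step in the sum, the hexokinase total of STBD1 W203C overlapped that of STBD1 WT.

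PFKP, PFKL and PFKM are the subunits from which the phosphofructokinase tetramer is assembled, alone or mixed. PFKP (ENSG00000067057; chromosome 10, 3066333 to 3137718, plus strand) was at 189, 186 and 196 TPM with plvx neo, 196, 182 and 182 with STBD1 WT and 173, 172 and 179 with STBD1 W203C. All 3 STBD1 W203C libraries were below the 6 others. The change in STBD1 WT vs plvx neo was -0.041 ± 0.0396 (adjusted p = 0.485), whereas STBD1 W203C was lower than STBD1 WT by -0.12 ± 0.0403 (adjusted p = 0.0323) and lower than plvx neo by -0.16 ± 0.0363 (adjusted p = 0.00621). Both calls were lost when single libraries were left out. Against STBD1 WT the adjusted p was 0.222 and 0.0598 without STBD1 WT replicates 1 and 2, and 0.133 and 0.156 without STBD1 W203C replicates 1 and 2, and after a correction for GC content and length the change was -0.037 (adjusted p = 0.524). Limma gave -0.094 for it (adjusted p = 0.188). Against plvx neo it was 0.0532 without plvx neo replicate 3 or without STBD1 W203C replicate 1, and 0.0505 without STBD1 W203C replicate 2.

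PFKL (ENSG00000141959; chromosome 21, 44300051 to 44327376, plus strand) was the phosphofructokinase with the clearest rise. It was at 77.4, 76.7 and 79.5 TPM with plvx neo, 98.8, 93.1 and 88.6 with STBD1 WT and 90.8, 85.0 and 82.3 with STBD1 W203C. Every library with either STBD1 construct was above every plvx neo library. The log2 fold change was 0.29 ± 0.0400 in STBD1 WT vs plvx neo (adjusted p = 1.59e-05), -0.18 ± 0.0411 in STBD1 W203C vs STBD1 WT (adjusted p = 0.00216) and 0.11 ± 0.0400 in STBD1 W203C vs plvx neo (adjusted p = 0.123). PFKL has the highest GC content of the isozymes, 64.6% of its exon bases, and after a correction for GC content and length the change against STBD1 WT was -0.023 (adjusted p = 0.688) and the one in STBD1 WT vs plvx neo was 0.096, still called (adjusted p = 0.0398). Limma on log2(TPM + 1) did not call the fall, at -0.12 (adjusted p = 0.208).

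PFKM (ENSG00000152556; chromosome 12, 48105139 to 48146404, plus strand) was at 117, 126 and 124 TPM with plvx neo, 127, 97.0 and 104 with STBD1 WT and 116, 121 and 119 with STBD1 W203C. The STBD1 WT libraries held both the highest and the lowest value. On expected counts no comparison passed, at -0.072 ± 0.0365 (adjusted p = 0.155), -0.0049 ± 0.0374 (adjusted p = 0.939) and -0.082 ± 0.0383 (adjusted p = 0.241) in the order above. The transcript length that RSEM assigned to PFKM ranged from 1673 to 2093 bases between libraries, by 1.25 times, which enters the TPM and not the counts. PFKM exons overlap SENP1 on the other strand by 516 bases.

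Within phosphofructokinase, PFKL took a larger part with either STBD1 construct than with plvx neo. PFKL made 20.2%, 19.7% and 19.9% of the step with plvx neo, 23.4%, 25.0% and 23.6% with STBD1 WT and 23.9%, 22.5% and 21.6% with STBD1 W203C. The share was 4.10 percentage points higher in STBD1 WT and 2.73 higher in STBD1 W203C than in plvx neo, without overlap in either case (exact p = 0.1 each, 0.176 adjusted over 30 shares compared). PFKM made 31.3% ± 0.968 with plvx neo, 28.0% ± 2.01 with STBD1 WT and 31.3% ± 0.733 with STBD1 W203C, lower in STBD1 WT without overlap on either side. With shares taken from expected counts in place of TPM, the PFKM difference between STBD1 WT and plvx neo was -1.67 points in place of -3.29, and that of PFKP -2.93 in place of -0.813. In STBD1 W203C vs STBD1 WT the same change moved PFKM to 1.58 points from 3.35 and PFKP to -0.233 from -1.97. PFKP made 48.8% ± 0.754, 48.0% ± 1.31 and 46.0% ± 0.910, lower in STBD1 W203C than in plvx neo without overlap. The sum of the 3 subunits was 390.5 ± 8.71 TPM with plvx neo, 389 ± 27.9 with STBD1 WT and 379.5 ± 1.26 with STBD1 W203C, where it was below plvx neo without overlap (exact p = 0.1, 0.240 adjusted).

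ALDOA is the main aldolase of these cells. ALDOA (ENSG00000149925; chromosome 16, 30064164 to 30070457, plus strand) was at 1053, 1044 and 1109.9 TPM with plvx neo, 1215, 1198 and 1140.3 with STBD1 WT and 1048, 1044 and 1062 with STBD1 W203C. The STBD1 WT libraries were above all others, and those of plvx neo and STBD1 W203C overlapped. The log2 fold change was 0.17 ± 0.0398 in STBD1 WT vs plvx neo (adjusted p = 0.00367), -0.23 ± 0.0392 in STBD1 W203C vs STBD1 WT (adjusted p = 0.000135) and -0.072 ± 0.0342 in STBD1 W203C vs plvx neo (adjusted p = 0.251). After GC and length correction the first of these was 0.075 and no longer called (adjusted p = 0.107). A same-strand gene, ENSG00000285043, holds 89.2% of the 100-base windows of the main ALDOA transcript and was listed at 49.8 to 64.9 TPM, so the division of reads between the genes is uncertain. Adding its counts to ALDOA left every ALDOA call on the same side of the threshold.

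ALDOC, the brain-type aldolase, had the largest fitted change of the 10 in STBD1 WT vs plvx neo and in STBD1 W203C vs STBD1 WT, as labelled. In STBD1 W203C vs plvx neo, the comparison that would take the place of the first if the labels were exchanged, that of ENO2 (-0.53) was larger than that of ALDOC (-0.43). ALDOC (ENSG00000109107; chromosome 17, 28573115 to 28576948, minus strand) was at 50.4, 56.1 and 65.5 TPM with plvx neo, 93.5, 91.4 and 80.4 with STBD1 WT and 47.7, 47.7 and 38.9 with STBD1 W203C. No group overlapped another. In expected counts it had 1326, 1377 and 1318 with plvx neo, 1806, 2486 and 1567 with STBD1 WT and 995, 882 and 856 with STBD1 W203C. The fitted log2 fold change was 0.57 ± 0.0560 in STBD1 WT vs plvx neo, a fold of 1.48 (adjusted p = 2.39e-07), and -1.0 ± 0.0597 in STBD1 W203C vs STBD1 WT, which is 0.500 of the STBD1 WT level (adjusted p = 1.90e-10). In STBD1 W203C vs plvx neo it was -0.43 ± 0.0538 (adjusted p = 9.37e-06). By size of change without regard to direction, ALDOC ranked 201 of 15052 genes in STBD1 W203C vs STBD1 WT. The length assigned to ALDOC varied between 1367 and 1643 bases between libraries, and ALDOC exons overlap an antisense RNA gene, ENSG00000265168, by 296 bases.

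ALDOC was the smaller part of its step in every library. Its share of aldolase TPM was 4.57%, 5.10% and 5.57% with plvx neo, 7.14%, 7.09% and 6.58% with STBD1 WT and 4.35%, 4.37% and 3.53% with STBD1 W203C. The means were 5.08% ± 0.501, 6.94% ± 0.307 and 4.08% ± 0.478 (SD, n = 3), without overlap in any comparison (exact p = 0.1 each, 0.176 adjusted). ALDOA was 17 to 20.9 times as abundant as ALDOC with plvx neo, 13.0 to 14.2 times with STBD1 WT and 21.9 to 27.3 times with STBD1 W203C. The summed aldolase level was 1126 ± 42.7, 1273 ± 46.4 and 1096 ± 4.41 TPM, highest in STBD1 WT without overlap (exact p = 0.1, 0.240 adjusted).

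**Figure D3:**
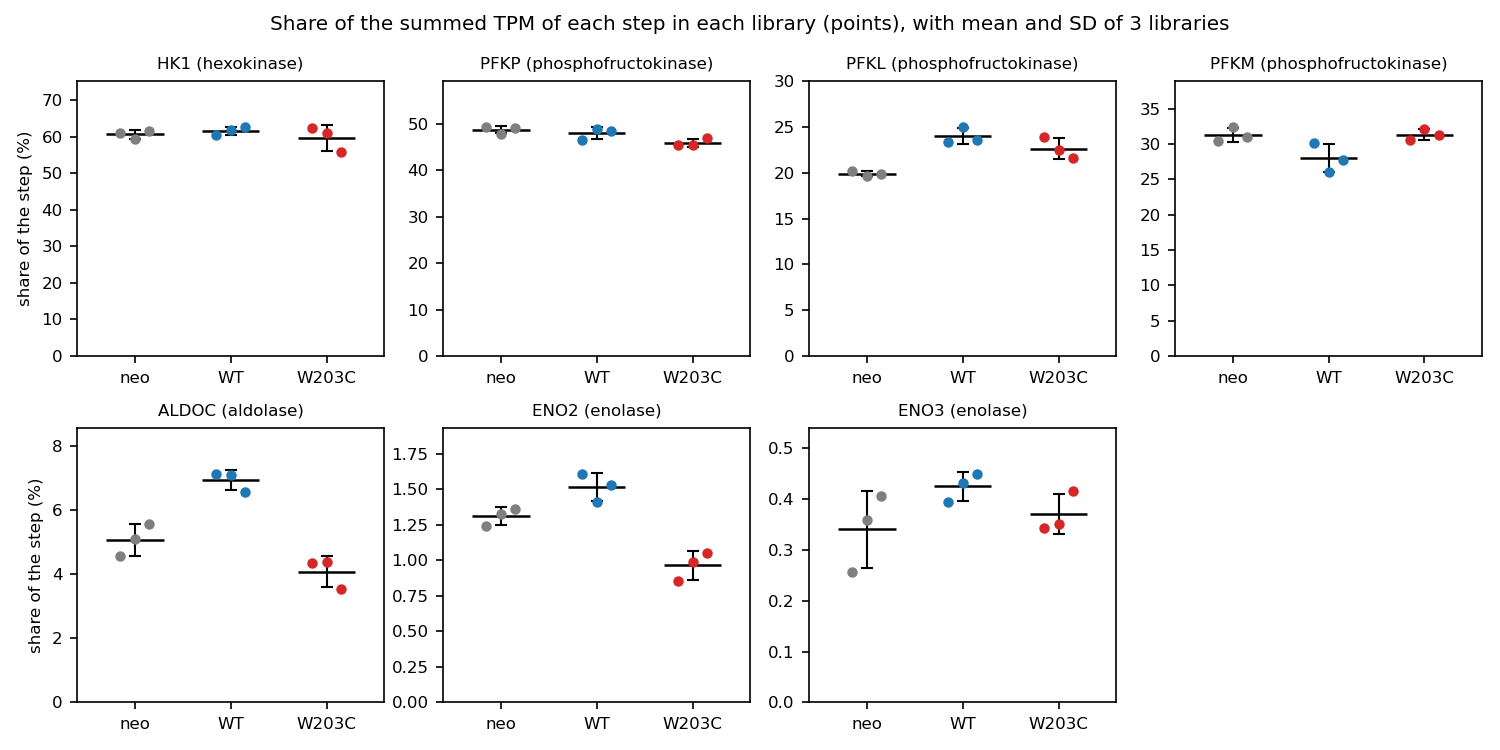
Share of the summed TPM of its step (%, linear axis from 0) taken by 7 isozymes in each library of plvx neo (neo), STBD1 WT (WT) and STBD1 W203C (W203C), with mean and SD. ALDOC averaged 5.08%, 6.94% and 4.08% of aldolase and ENO2 1.31%, 1.52% and 0.966% of enolase, and the PFKL share of plvx neo lay below that of both STBD1 constructs.

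ENO1 (ENSG00000074800; chromosome 1, 8861000 to 8879190, minus strand), the general enolase, passed the test in no comparison. It was at 2263, 2267 and 2321 TPM with plvx neo, 2296, 2246 and 2149 with STBD1 WT and 2219, 2197 and 2243 with STBD1 W203C. The STBD1 W203C libraries were all below those of plvx neo, by a narrow margin. The log2 fold change was -0.031 ± 0.0371 (adjusted p = 0.580), -0.046 ± 0.0390 (adjusted p = 0.420) and -0.082 ± 0.0319 (adjusted p = 0.146) for STBD1 WT over plvx neo, STBD1 W203C over STBD1 WT and STBD1 W203C over plvx neo. Without STBD1 W203C replicate 3 the last of these passed, at -0.096 (adjusted p = 0.0381).

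ENO2, the neuron-type enolase, was the second isozyme with a wide difference. ENO2 (ENSG00000111674; chromosome 12, 6913745 to 6923698, plus strand) was at 28.5, 30.8 and 32.0 TPM with plvx neo, 37.6, 32.3 and 33.6 with STBD1 WT and 19.2, 22.1 and 24 with STBD1 W203C. The STBD1 W203C libraries were below both other groups, and the lowest STBD1 WT library was just above the highest plvx neo library. Its expected counts were 1052, 1186 and 1171, then 1190.0, 1507 and 1094, then 685, 701 and 781 in the same order of groups. The log2 fold change was -0.71 ± 0.0607 in STBD1 W203C vs STBD1 WT (adjusted p = 3.57e-08), 0.610 times the level with STBD1 WT, and -0.53 ± 0.0630 in STBD1 W203C vs plvx neo (adjusted p = 5.25e-06). In STBD1 WT vs plvx neo it was 0.19 ± 0.0545 (adjusted p = 0.0135), and that call was lost without plvx neo replicate 1 (adjusted p = 0.0667), without STBD1 WT replicate 1 (adjusted p = 0.0834), after GC and length correction, at 0.095 (adjusted p = 0.162), and with limma, at 0.17 (adjusted p = 0.176).

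ENO3 (ENSG00000108515; chromosome 17, 4948092 to 4957131, plus strand), the muscle enolase, was the least abundant and least precisely measured, with 77 to 136 expected counts per library. It was at 5.90, 8.26 and 9.58 TPM with plvx neo, 9.22, 9.89 and 9.87 with STBD1 WT and 7.72, 7.83 and 9.47 with STBD1 W203C, and the plvx neo libraries alone spread over most of that range. The log2 fold change was 0.28 ± 0.151 (adjusted p = 0.177), -0.23 ± 0.149 (adjusted p = 0.285) and 0.054 ± 0.161 (adjusted p = 0.911), and none passed. ENO3 exons overlap those of PFN1, a very abundant actin-binding protein gene on the other strand, by 111 bases.

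Within enolase, the ENO2 share was 1.24%, 1.33% and 1.36% with plvx neo, 1.61%, 1.41% and 1.53% with STBD1 WT and 0.854%, 0.992% and 1.05% with STBD1 W203C, without overlap in any comparison. The ratio of mean shares, STBD1 W203C to STBD1 WT, was 0.638 for ENO2 and 0.589 for ALDOC. ENO1 was 61.1 to 69.6 times as abundant as ENO2 in STBD1 WT and 93.6 to 116 times in STBD1 W203C. The ENO3 share, 0.340% ± 0.0760, 0.425% ± 0.0289 and 0.370% ± 0.0396, overlapped in every comparison. The summed enolase level, set by ENO1, was 2322 ± 35.2, 2274 ± 75.9 and 2249.7 ± 25.3 TPM, lower in STBD1 W203C than in plvx neo without overlap (exact p = 0.1, 0.240 adjusted). ENO4 did not exceed 0.570 TPM. Over all steps, 6, 5 and 6 of the 10 shares did not overlap in the 3 comparisons in the order given. Each of these had an adjusted exact p of 0.176. For the TPM of single genes, 31.3%, 33.1% and 20.2% of all genes did not overlap. That is another measure, and no such percentage was computed for shares, so it is not a baseline for them. Shares within a step are bound to each other because they sum to 100%, so that ALDOA and ALDOC always count together.

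The rest of the glycolytic genes were read from a list of 23 transporters, enzymes and regulators, of which 17 passed the filter on low counts. In STBD1 WT vs plvx neo, 4 rose and 2 fell, with a median log2 fold change of 0.025, in a comparison where 27.8% of all genes passed. The largest rises were those of the glucose transporter SLC2A3 (0.67 ± 0.180, adjusted p = 0.00812), of PFKFB4 (0.22 ± 0.0686, adjusted p = 0.0183), which makes and removes the phosphofructokinase activator fructose 2,6-bisphosphate, and of the lactate exporter SLC16A3 (0.18 ± 0.0444, adjusted p = 0.00504). The falls were PFKFB3, a kinase that makes the same activator (-0.19 ± 0.0458, adjusted p = 0.00432), and the monocarboxylate transporter SLC16A1 (-0.12 ± 0.0421, adjusted p = 0.0395). SLC2A3 was scarce, at 1.32 TPM on average.

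Between STBD1 W203C and STBD1 WT, 7 of these 17 genes fell and 1 rose, with a median of -0.067, where 27.9% of all genes passed. The largest falls were SLC2A3 (-1.25 ± 0.220, adjusted p = 0.000217), PFKFB4 (-0.60 ± 0.0840, adjusted p = 1.67e-05) and the main glucose transporter SLC2A1 (-0.39 ± 0.0430, adjusted p = 1.04e-06), and the rise was SLC16A1 (0.18 ± 0.0399, adjusted p = 0.00196). In STBD1 W203C vs plvx neo, 3 fell and none rose, with a median of -0.046, where 5.70% of all genes passed. They were SLC2A1 (-0.39 ± 0.0375, adjusted p = 1.89e-07), PFKFB4 (-0.38 ± 0.0734, adjusted p = 0.00185) and PGK1, the first ATP-making enzyme of the pathway (-0.23 ± 0.0335, adjusted p = 9.84e-05). Among 21 tested genes of a list of 22 hypoxia-inducible genes outside glycolysis, 12 rose and 1 fell in STBD1 WT vs plvx neo (median 0.25, with 13.9% of all genes called in each direction), 17 fell and none rose in STBD1 W203C vs STBD1 WT (median -0.48, with 13.4% of all genes called lower), and 8 fell and 1 rose in STBD1 W203C vs plvx neo (median -0.21, with 2.67% of all genes called lower). What part their levels had in those of the isozymes was not tested.

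For the isozyme of each step with the largest change, the 3 genes with the most similar profile were sought among 10026 genes of at least 5 TPM on average, by Pearson correlation of log2(TPM + 1) over the 9 libraries. The libraries fall into 3 groups that differ in many genes, so high values are common and are given as a description. For HK1 they were ANGPTL4 (0.955), HIBADH (0.953) and MMD (0.948), and for PFKL they were LGALS3BP (0.983), SYNGR3 (0.968) and GMPPA (0.967). For ALDOC they were SAT1 (0.984), CKMT1A (0.977), a gene with a near-identical copy, and PAQR6 (0.971). For ENO2 they included SLC2A1 (0.973) and RAB6B (0.963). Among these isozymes of largest change, HK1 and ALDOC (0.934), HK1 and ENO2 (0.866) and ALDOC and ENO2 (0.816) had similar profiles. The values for PFKL were 0.601 with ALDOC, 0.465 with HK1 and 0.157 with ENO2.

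Some of these isozymes were also measured by PCR in the study. The primers for ALDOC and ENO2, with the widest change, and for ALDOA show which transcripts such an assay reads, and are given 5′ to 3′.
ALDOA forward: ATGCCCTACCAATATCCAGCA
ALDOA reverse: GCTCCCAGTGGACTCATCTG
ALDOC forward: ATGCCTCACTCGTACCCAG
ALDOC reverse: TTTCCACCCCAATTTGGCTCA
ENO2 forward: CCGGGAACTCAGACCTCATC
ENO2 reverse: CTCTGCACCTAGTCGCATGG

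Matched in full to the GENCODE 44 transcripts, the ALDOC and ENO2 pairs each framed a product of 1 gene, of 151 and 149 bases. The ALDOA pair framed a product of 117 bases in ALDOA and also in ENSG00000285043, so that it reads both genes together. The pair listed for PFKP matched PFKP alone, with 162 bases. The pair listed for HK1 matched no transcript in full, and its nearest sites in HK1 transcripts differed at 2 bases for the forward and 3 for the reverse primer.

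PCR levels were normalised in the study to TUBB, a tubulin gene, and TUBB itself differed between these groups. It was at 835 ± 9.08 TPM with plvx neo, 713 ± 5.78 with STBD1 WT and 887 ± 28.5 with STBD1 W203C (SD, n = 3), with log2 fold changes of -0.22 ± 0.0348 in STBD1 WT vs plvx neo (adjusted p = 6.60e-05), 0.28 ± 0.0387 in STBD1 W203C vs STBD1 WT (adjusted p = 1.52e-05) and 0.049 ± 0.0349 in STBD1 W203C vs plvx neo (adjusted p = 0.485). Scaling the counts to TUBB moved the median of all genes to 0.23 in STBD1 WT vs plvx neo, to -0.28 in STBD1 W203C vs STBD1 WT and to -0.052 in STBD1 W203C vs plvx neo. On that scale PFKP, PFKM and ENO1 turned from lower to higher in STBD1 WT vs plvx neo, at 0.18, 0.15 and 0.19, all below the median of all genes. ALDOC stayed beyond it, at 0.79 in STBD1 WT vs plvx neo and -1.27 in STBD1 W203C vs STBD1 WT, and ENO2 at -0.99 in the latter.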

How the data were processed

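RNA sequencing was analysed for 9 libraries of HCT116 cells carrying shSTBD1, in 3 groups of 3, taken with their replicate numbers from the sample titles. According to the methods of the study, TRIzol RNA was made into NEBNext Ultra libraries, and read pairs were filtered, aligned to hg38 with STAR 2.7.1a using Ensembl release 93 and quantified with RSEM 1.3.1. Whether strand was used in counting is not given in the sources used here, so antisense overlaps are uncertain. The deposited tables give each gene an RSEM expected count, an estimated count that need not be whole because the authors' run divides read pairs between transcripts. The same deposited tables hold TPM and FPKM, both scaled by effective length by the authors, and FPKM was not used.

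Of 58395 genes, 57754 (98.9%) were matched to a symbol in a supplied table of names. Expected counts were rounded, filtered with filterByExpr, normalised by TMM and tested on the 6 libraries of each comparison with the two-sided quasi-likelihood test of edgeR 4.0.16 (glmQLFit, glmQLFTest) in R 4.3.3, and a gene was called at a Benjamini-Hochberg adjusted p under 0.05 over all genes tested. The SE is the absolute log2 fold change over the square root of F. The common biological coefficient of variation was 4.05% to 4.21%. Shares and sums of TPM were tested by exact permutation of the group labels, two-sided (scipy 1.17.1). DESeq2 1.42.0, limma 3.58.1 on log2(TPM + 1), no filter, DESeq2 size factors, 9 libraries in the fit, a correction for gene GC content and length, a replicate block, scaling to TUBB, adding overlapping genes and leaving out each library were tried. The fits were tested on simulated counts.

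The isozymes and the gene lists were chosen with earlier results of these data known. Named are all 10 isozymes, the 3 called genes with the largest rise and fall of the other glycolytic genes in each comparison, other enzymes of the 4 steps at 1 TPM or more on average, the target, TUBB and the profile neighbours, of which not all are reported here. STBD1 and its readthrough gene were given as the check of the constructs. Chi-square per gene between replicates, over genes with at least 20 counts, was 2.12 to 3.87, and no pair was counted as 1 library. The methods call them biological replicates without saying what was separate. The p-values set the difference between groups against the spread between these libraries within a group. Whether that spread includes separate infections is not known.

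Promoter windows came from RefSeq (GRCh38.p14) and all 10 isozymes matched. Transcripts, exons and positions came from GENCODE 44 (hg38), and stretches that any annotated transcript contains were not printed beyond 30 bases.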

Additional observations from a re-analysis of the deposited data

How the results depend on the processing

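Directions and calls of ALDOC and ENO2 in STBD1 W203C vs STBD1 WT held under all 16 alternatives, with log2 fold changes of -1.27 to -0.93 and -0.99 to -0.62, as did those of HK1 and ALDOA there and of ALDOC and PFKL in STBD1 WT vs plvx neo. Of 480 fitted isozyme changes under an alternative, 424 kept direction and side of the threshold, 17 gained a call, 25 lost one and 14 turned direction. Scaling to TUBB, which shifts all genes alike, gave 8 of the gained calls and 3 of the turns. Limma on log2(TPM + 1) called fewer genes: 1751, 1828 and 131 in the 3 comparisons in the order of the report against 4254, 4202 and 859, and 3, 4 and 0 isozymes against 5, 6 and 3. For the count of 0, in STBD1 W203C vs plvx neo, 4 isozymes had an unadjusted p below 0.05. With edgeR 8 had one, beside 2906 of all 15081 genes tested. DESeq2 called 4 isozymes, beside 620 of 11867 genes, and the one it added was ENO1 (-0.078). The GC and length correction moved the share of calls that were higher from 50% to 32.7% and from 51.8% to 69.2% in the first and second comparison, and in STBD1 WT vs plvx neo it made PFKP (-0.12) and PFKM (-0.11) called. Small values turned: in STBD1 W203C vs STBD1 WT, PFKM to 0.0023 (DESeq2), 0.13 (limma), 0.047 (GC and length) and 0.046 (with the replicate block too), and ENO1 to 0.017 under both GC fits. Relative to TUBB, PFKP, PFKM and ENO1 turned to 0.18, 0.15 and 0.19 in STBD1 WT vs plvx neo. The cause was not tested.

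Leaving out 1 library gave 459 to 818 genes and 2 to 5 isozymes called in STBD1 W203C vs plvx neo, with 459 without plvx neo replicate 3, 501 and 543 without STBD1 W203C replicates 1 and 2, and 5 isozymes without STBD1 W203C replicate 3. PFKM then ranged from -0.018 to 0.020 in STBD1 W203C vs STBD1 WT, and HK2 from -0.18 to 0.017 and ENO3 from -0.036 to 0.16 in STBD1 W203C vs plvx neo. Step sums without overlap numbered 1 to 3 of 4 in STBD1 WT vs plvx neo (main 1) and 2 to 4 in STBD1 W203C vs plvx neo (main 2). Leaving out a library cannot make separate groups overlap, so these counts could only stay or rise. Shares without overlap numbered 8 in place of 6 in STBD1 WT vs plvx neo and 6 in place of 5 in STBD1 W203C vs STBD1 WT with other enzymes added, and 1 of 4 sums in place of 2 did not overlap in STBD1 W203C vs STBD1 WT.

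Same-numbered replicates did not deviate together (correlations -0.0124 to 0.0677), so the numbers were not taken to pair the libraries. With the replicate block, 4400, 3662 and 1003 genes were called, and of the isozyme calls that of PFKP in STBD1 W203C vs STBD1 WT was lost (-0.12, adjusted p = 0.0743). In the 3 comparisons 3, 2 and 3 of 6 libraries correlated best with the library of their own number in the other group.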
